A study of Mus musculus with 12 samples.

Results

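The genes described here are 30 genes of cholesterol and fatty acid synthesis, taken by their symbols from a table of 23184 gene symbols. They are 6 regulators of the SREBP pathway, 7 enzymes of the mevalonate pathway, 11 enzymes of the later sterol steps and 6 enzymes of fatty acid synthesis. Each was matched by its symbol, and none was chosen by a threshold on its level. The RNA came from HL-1 cells, a cardiac muscle cell line of mouse atrial origin kept in DMEM with 10% FBS, and gave 12 libraries in 3 groups of 4. Re-expression cells (RE, labelled WDR62+) are knockdown cells in which a second virus, based on pCDH, carried wild-type WDR62 with a flag tag. Knockdown cells (KD, labelled WDR62-) received a virus with a CRISPR guide against Wdr62, and control cells (CON, labelled WT) received viruses with the lentiCRISPRv2 and pCDH vectors. The labels name the pCDH vector for RE and for CON and do not name it for KD, so a response to that vector and a response to the guide cannot be told apart in KD against CON, nor that vector and WDR62 in RE against KD. All 3 groups are cultures of 1 cell line.

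Cells make cholesterol from acetyl-CoA through mevalonate, farnesyl diphosphate, squalene and lanosterol, and they make fatty acids from the same acetyl-CoA through malonyl-CoA. Both routes are controlled by the SREBP transcription factors, which are held in the endoplasmic reticulum with SCAP and INSIG proteins when sterols are plentiful and are cut free in the Golgi when sterols are scarce. SREBP2, the product of Srebf2, acts mainly on sterol genes, and SREBP1c, a product of Srebf1, acts mainly on fatty acid genes. Heart muscle cells burn fatty acids as their main fuel and make little of them.

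Promoters of the 3 genes that passed the test in KD against CON are shown with that of Fasn, the fatty acid synthase gene, so that a sterol promoter can be read beside a fatty acid promoter. Each window runs from 250 bases before to 50 bases after the annotated start in RefSeq (build GRCm38.p6), 5′ to 3′ on the strand of the gene. The windows are chr13:119690101-119690400 on the plus strand for Hmgcs1, chr8:122443373-122443672 on the minus strand for Mvd, chr9:42264251-42264550 on the minus strand for Sc5d, and chr11:120824498-120824797 on the minus strand for Fasn. Capitals mark matches on either strand to the sterol response element letters TCACNCCAC, the CCAAT box, the Sp1 box GGGCGG and the E-box CACGTG.
Hmgcs1: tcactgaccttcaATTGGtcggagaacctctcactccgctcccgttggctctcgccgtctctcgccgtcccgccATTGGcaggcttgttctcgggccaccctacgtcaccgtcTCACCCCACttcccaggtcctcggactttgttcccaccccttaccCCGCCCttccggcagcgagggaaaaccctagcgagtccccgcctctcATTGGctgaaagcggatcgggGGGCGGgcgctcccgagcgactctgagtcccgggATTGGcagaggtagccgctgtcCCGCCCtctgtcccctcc
Mvd: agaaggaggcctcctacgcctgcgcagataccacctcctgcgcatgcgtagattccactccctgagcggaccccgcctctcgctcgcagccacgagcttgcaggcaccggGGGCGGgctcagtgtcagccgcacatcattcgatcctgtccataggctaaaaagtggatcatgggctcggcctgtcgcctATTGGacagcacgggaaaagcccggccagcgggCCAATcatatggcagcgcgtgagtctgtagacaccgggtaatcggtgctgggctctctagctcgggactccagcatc
Sc5d: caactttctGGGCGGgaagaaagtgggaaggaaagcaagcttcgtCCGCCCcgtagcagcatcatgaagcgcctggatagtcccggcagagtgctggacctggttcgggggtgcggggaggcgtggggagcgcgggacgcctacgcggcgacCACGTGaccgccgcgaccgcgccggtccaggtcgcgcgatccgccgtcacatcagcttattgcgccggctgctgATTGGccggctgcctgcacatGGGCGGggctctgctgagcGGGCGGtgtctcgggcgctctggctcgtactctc
Fasn: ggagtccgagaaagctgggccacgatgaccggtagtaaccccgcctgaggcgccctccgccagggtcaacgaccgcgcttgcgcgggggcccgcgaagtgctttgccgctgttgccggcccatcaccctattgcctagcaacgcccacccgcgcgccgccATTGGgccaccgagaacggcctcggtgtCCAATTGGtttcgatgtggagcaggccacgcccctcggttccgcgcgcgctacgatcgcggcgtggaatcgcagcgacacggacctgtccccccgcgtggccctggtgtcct
The Hmgcs1 window held the 1 match to TCACNCCAC among the genes with a window, at position -137 from the start, with CCAAT matches on both sides of it and GGGCGG matches between it and the start and beyond the start. In the Fasn window the matches were to CCAAT alone, and those at -62 and -59 overlap.

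A window was given for 24 of the 30 genes, and Scd1, Scd2, Sqle, Fdft1, Fdps and Stard4 had none. CCAAT occurred in 14 of 15 mevalonate and sterol enzymes (93.3%) and in 2 of 4 fatty acid enzymes (50%), beside 41.1% of the 27025 symbols with a window. GGGCGG occurred in 14 of 15 mevalonate and sterol enzymes (93.3%) and in 1 of 4 fatty acid enzymes (25.0%), beside 38.2% of all symbols. CACGTG, the letters of an E-box, occurred in Scap, Insig1, Hsd17b7, Sc5d and Dhcr7, which is 5 of 24 genes (20.8%), beside 8.09% of all symbols. TCACNCCAC occurred in 1.44% of all symbols. The 27025 symbols outnumber the 11774 genes tested below, so they include genes at low or no level, while all 24 genes with a window were tested. No share is given for tested genes alone. A match describes the letters of the window and not binding of a factor.

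Levels are TPM, transcripts per 1000000 transcripts. Genes with a mean of at least 1 TPM over the 12 libraries were tested, 11774 in all, and all 30 genes were among them. Fold changes are differences of log2(TPM + 1) with their standard error (SE), and a gene is said to have risen or fallen where its Benjamini-Hochberg adjusted p over all tested genes, from limma, was below 0.05. Each library had 14060 to 14733 genes above 0 TPM, and the depth of sequencing is unknown. Wdr62 had 1.47, 0.772, 0.826 and 1.99 TPM in RE, 1.40, 0.944, 1.37 and 0.881 TPM in KD, and 7.45, 6.61, 6.50 and 3.38 TPM in CON. It fell in KD against CON by 1.67 on the log2 scale (SE 0.25; limma adjusted p = 0.000921), and it fell in RE against CON by 1.62 (SE 0.25; limma adjusted p = 0.00147). The difference of RE from KD was 0.05 (SE 0.25; limma adjusted p = 0.895), so the transcript of the targeted gene was not detectably higher in RE. The cells labelled RE are therefore called by their label, with no statement that the transcript was restored.

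Of 13 cardiomyocyte markers, Actc1, Myl7 and Actn2 were listed at 0 in all 12 libraries and 7 were below 1 TPM in all of them, with sums of 41.2 to 66.5 TPM in RE, 40.1 to 48.8 TPM in KD and 29.9 to 48.0 TPM in CON. Of 8 adipocyte markers, Cfd and Lep were listed at 0 throughout and 4 were below 1 TPM in all libraries. Their sums were 807 to 2041 TPM in RE, 1796 to 2705 TPM in KD and 365 to 574 TPM in CON, nearly all of it Lpl and Fabp4. Macrophage markers summed to 14.98 to 23.6 TPM in RE, 12.6 to 18.4 TPM in KD and 4.71 to 8.29 TPM in CON, with Adgre1 at 0. Skeletal muscle markers (6) summed to 7.35 to 15.2 TPM in RE, 8.13 to 10.4 TPM in KD and 21.3 to 41.0 TPM in CON, and the 4 that were tested all fell in KD against CON. Fibroblast markers (6, Tcf21 at 0) summed to 359 to 517 TPM in RE, 699 to 846 TPM in KD and 603 to 866 TPM in CON, and 2 of the 4 tested fell in KD against CON. Endothelial markers (5) were below 1 TPM in all libraries. In bulk RNA, a change in the share of a cell type and a change of RNA within cells cannot be told apart, and the part of these markers in the results was not tested.

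The level of long transcripts varied between libraries. Over 2268 tested genes whose transcripts measure 5038 bases or more, the longest of all, deviations from the gene mean had a median of -0.73, -0.11, -0.996 and -0.13 in RE, 0.57, 0.55, -0.21 and 0.06 in KD, and 0.72, 0.69, 0.47 and -0.83 in CON, on the log2 scale. CON 4, RE 1 and RE 3 were low, and CON 4 stood on the other side of 0 from the remaining CON libraries. Of the 6 fatty acid enzymes 4 belong to those genes, of the 6 regulators 2, and of the 18 mevalonate and sterol enzymes 0. Median transcript length was 2504 bases in the mevalonate and sterol enzymes, 5703 bases in the fatty acid enzymes, 4263 bases in the regulators and 3069 bases in all tested genes with a length. Results are therefore given with and without these 3 libraries, and with a smooth trend on transcript length removed from each library, wherever this changed them.

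**Figure D1:**
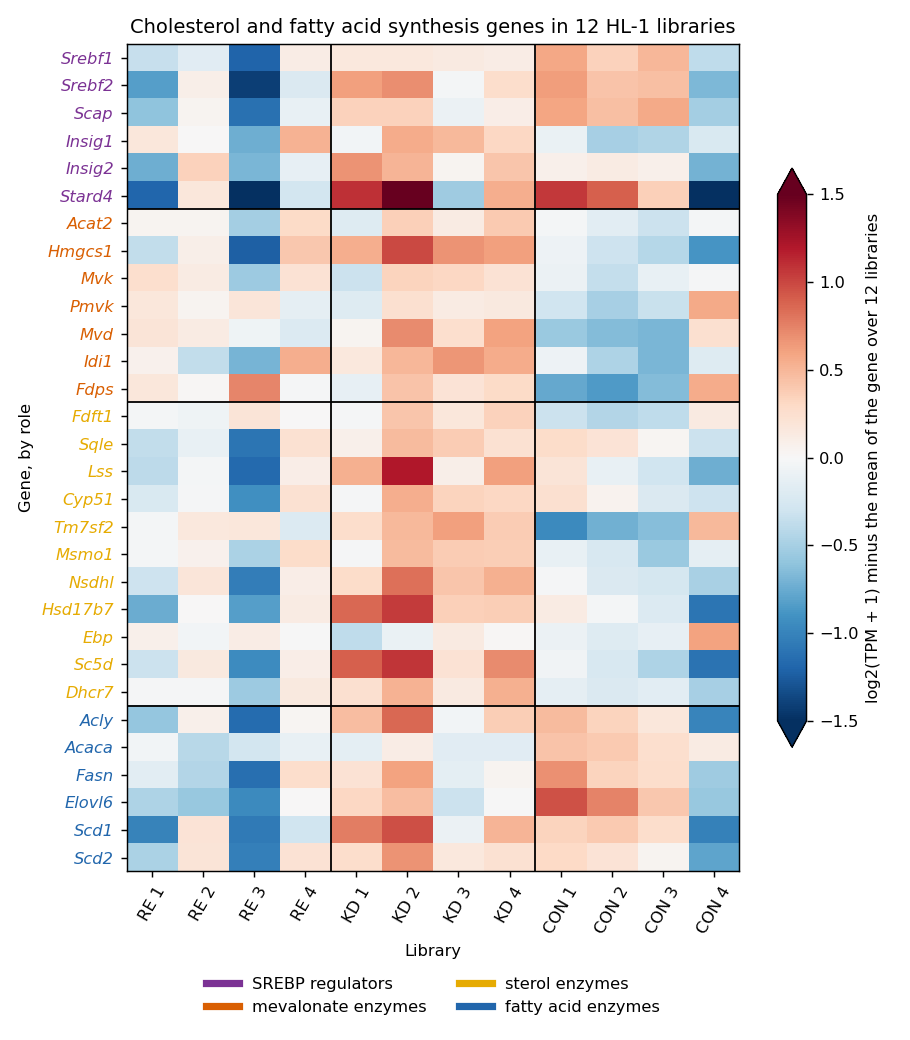
Each cell is log2(TPM + 1) of 1 gene in 1 library minus the mean of that gene over the 12 libraries, with genes ordered by role from top to bottom and libraries of RE, KD and CON from left to right. KD 2 is above the mean for most genes, RE 3 is below it for most, and CON 4 differs from CON 1 to CON 3 in the fatty acid enzymes and regulators.

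The genes spanned a wide range of levels. By mean TPM in CON, the desaturases Scd2 (669 ± 195) and Scd1 (448 ± 162) stood first, followed by Sqle (243 ± 42.1) and Msmo1 (141 ± 19.0) (SD, n = 4). The spreads of Scd2 and Scd1 overlapped, but Scd2 was above Scd1 in every CON library. Hsd17b7 (12.4 ± 4.29 TPM) and Acaca (11.6 ± 1.21 TPM) were the lowest (SD, n = 4) and did not differ beyond their spread. Acaca makes the malonyl-CoA on which Fasn works. TPM is scaled by transcript length, but the level of long transcripts varied between libraries, CON 4 among them. Levels of genes of unlike length can therefore be compared only roughly. Scd1 and Scd2 are similar in sequence, and the authors' counting may have split reads between them, as for Acat2 and its relatives.

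In KD against CON, the genes that passed the test all belong to the sterol route. Hmgcs1, Sc5d and Mvd rose, none of the 30 genes fell, and no fatty acid enzyme or regulator passed the test. The 3 rises are 10.0% of the 30 genes, beside 6.6% of all tested genes that rose, 3.61% that fell and 10.2% called in either direction, so the share called is close to the background. At an unadjusted limma p below 0.05, 12 of the 30 genes were higher and 1 was lower, beside 2803 of the 11774 tested genes in either direction.

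Hmgcs1, which makes HMG-CoA at the entry to the mevalonate pathway, had 101, 139.9, 55.6 and 174 TPM in RE, 192, 261, 211 and 201 TPM in KD, and 124, 106, 97.3 and 70.8 TPM in CON. Every KD library was above every RE and every CON library. It rose in KD against CON by 1.13 (SE 0.30; limma adjusted p = 0.0303). Its promoter is the one with the sterol response element match above.

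Sc5d, the lathosterol desaturase near the end of cholesterol synthesis, had 48.6, 67.7, 31.3 and 65.8 TPM in RE, 114, 129, 70.9 and 100.4 TPM in KD, and 58.9, 51.7, 43.9 and 27.7 TPM in CON. All KD libraries were above all RE and all CON libraries. It rose in KD against CON by 1.19 (SE 0.29; limma adjusted p = 0.0214).

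Mvd, which makes isopentenyl diphosphate from a mevalonate diphosphate, had 45.0, 42.8, 37.3 and 33.7 TPM in RE, 40.1, 64.8, 46.7 and 60.1 TPM in KD, and 26.3, 24.6, 23.9 and 46.4 TPM in CON. CON 4 reached into the range of KD, while the other 3 CON libraries were below all KD libraries. It rose in KD against CON by 0.82 (SE 0.23; limma adjusted p = 0.0406). This call ended in 8 of the 12 fits that left out 1 library each (KD 2, KD 3, KD 4, RE 1, RE 2, CON 1, CON 2 or CON 3; limma adjusted p up to 0.138), and with median-of-ratios scaling (limma adjusted p = 0.148), quantile normalization (0.0725) and a fit of KD and CON alone (0.0765). The Hmgcs1 call ended on leaving out any 1 KD library, CON 2 or CON 3 (limma adjusted p up to 0.1004), and the Sc5d call on leaving out KD 1, KD 2, KD 4 or CON 3 (up to 0.0762).

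**Figure D2:**
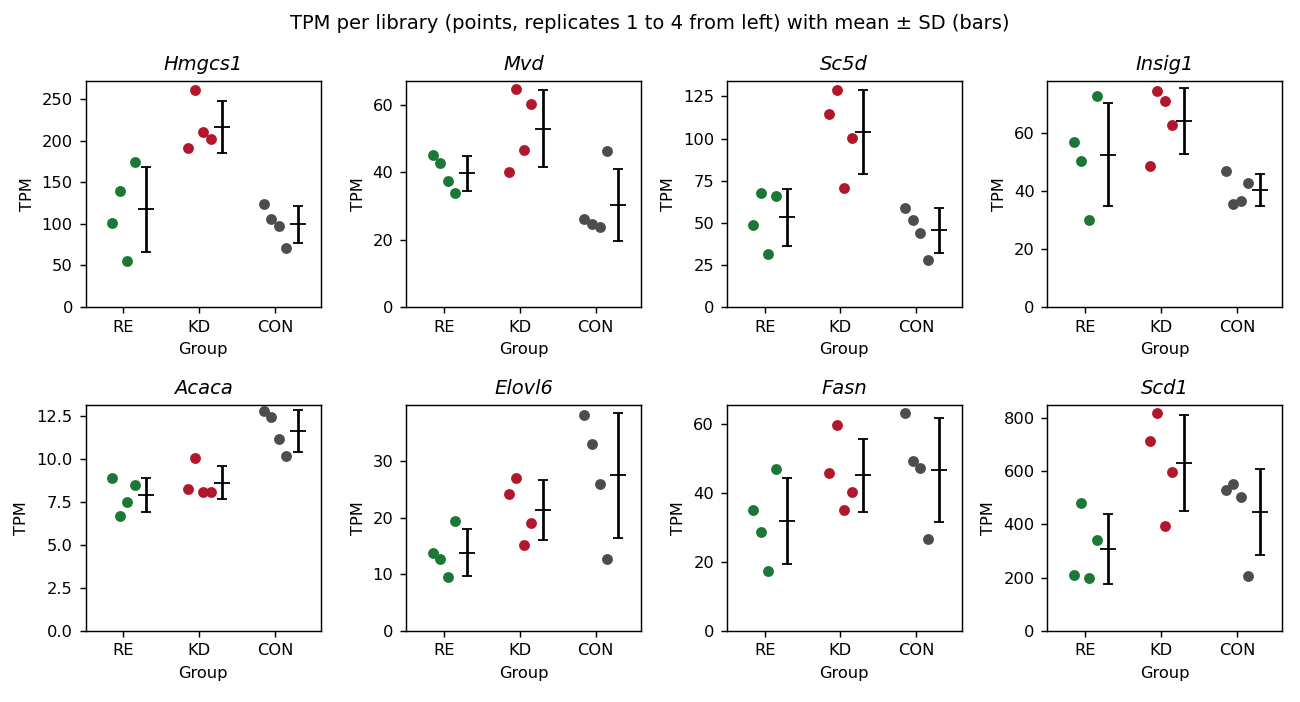
TPM of 8 genes in each library (points, replicates 1 to 4 from left) with the mean ± SD (bars, n = 4), for RE, KD and CON from left to right, each panel on its own axis from 0. Hmgcs1 and Sc5d in KD lie above both other groups, Mvd in CON has 1 high library at 46.4 TPM, and Acaca is highest in CON.

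The other mevalonate enzymes did not pass the test, and all 7 had an estimate above 0 (median 0.63, range 0.22 to 1.13; median of all tested genes -0.01). Idi1, which isomerises isopentenyl diphosphate, averaged 84.5 ± 32.2 TPM in RE, 122 ± 17.6 TPM in KD and 68.7 ± 12.8 TPM in CON (SD, n = 4), with every KD library above every CON library and an estimate of 0.82 (SE 0.24; limma adjusted p = 0.0522). Fdps, the farnesyl diphosphate synthase, had 72.8 to 107 TPM in KD against 46.2, 43.5, 50.01 and 117 TPM in CON, so that CON 4 alone was above KD. Pmvk, the phosphomevalonate kinase, had 105 to 142 TPM in KD and 97.3, 84.5, 94.6 and 178 TPM in CON, again with CON 4 the highest. Acat2, the thiolase that joins acetyl-CoA units, had 111 to 167 TPM in KD and 102 to 125 TPM in CON. Mvk, the mevalonate kinase, had 39.7 to 63.3 TPM in KD and 38.7 to 49.2 TPM in CON. In both of these genes the groups overlapped.

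Of the 11 later sterol enzymes Sc5d alone passed the test, and 10 had an estimate above 0 (median 0.61, range -0.13 to 1.19). Msmo1, Nsdhl and Hsd17b7, which remove the methyl groups of lanosterol products, lay higher in every KD library than in any CON library. Their KD means were 208 ± 29.6, 150.4 ± 25.3 and 24.5 ± 6.20 TPM, against 141 ± 19.0, 88.1 ± 12.03 and 12.4 ± 4.29 TPM in CON (SD, n = 4). Their estimates were 0.56 (SE 0.18), 0.76 (SE 0.24) and 0.96 (SE 0.32), with limma adjusted p values of 0.0688, 0.0688 and 0.0768. Dhcr7, which makes cholesterol in the last step, had 31.6, 38.9, 29.5 and 39.2 TPM in KD and 24.2, 22.8, 23.9 and 18.7 TPM in CON, with no overlap and an estimate of 0.61 (SE 0.18; limma adjusted p = 0.0555).

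Tm7sf2, a sterol reductase, had 28.4 to 36.5 TPM in KD and 11.6, 13.8, 14.8 and 33.4 TPM in CON, with CON 4 inside the KD range and an estimate of 0.89 (SE 0.27; limma adjusted p = 0.0565). Part of its reads may belong to Vps51, which overlaps it on the same strand at 23.4 TPM. Lss, the lanosterol synthase, had 28.0 to 62.03 TPM in KD and 15.4 to 30.2 TPM in CON, and only KD 3 fell within the CON range (estimate 0.85, SE 0.31; limma adjusted p = 0.116). Fdft1, the squalene synthase, had 103 to 138 TPM in KD and 83.2, 76.2, 79.3 and 114 TPM in CON (estimate 0.48, SE 0.15; limma adjusted p = 0.0674). It overlaps Ctsb, a gene on the opposite strand at 678 TPM, and whether the authors counted by strand is not given. Sqle, the squalene epoxidase, had 245 to 322 TPM in KD and 186 to 281 TPM in CON. Cyp51, the lanosterol demethylase, had 104 to 155 TPM in KD and 85.0 to 125 TPM in CON, and Ebp, a sterol isomerase, 58.5 to 83.9 TPM in KD and 66.8 to 116 TPM in CON. These last 3 genes overlapped between the groups.

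The 6 regulators did not pass the test in KD against CON. Insig1, whose protein holds SCAP in the endoplasmic reticulum and whose gene is itself a known SREBP target, had 56.8, 50.4, 29.9 and 72.9 TPM in RE, 48.8, 74.5, 71.0 and 62.7 TPM in KD, and 47.1, 35.5, 36.4 and 42.7 TPM in CON. It lay higher in every KD library than in any CON library (estimate 0.65, SE 0.24; limma adjusted p = 0.121). Srebf2 had 103 to 172 TPM in KD and 65.9 to 164 TPM in CON, and Scap, the escort of SREBP to the Golgi, 22.1 to 30.2 TPM in KD and 16.3 to 35.9 TPM in CON. Srebf1 had 34.2 to 35.4 TPM in KD, a narrow range, and 24.0 to 47.7 TPM in CON. Insig2 had 105 to 163 TPM in KD and 62.3 to 111 TPM in CON, and Stard4, a carrier of sterol between membranes, 8.29 to 37.3 TPM in KD and 3.24 to 27.2 TPM in CON. All 5 of these overlapped between the groups, and in each of them CON 4 was the lowest CON library.

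Among the fatty acid enzymes, Acaca was the gene whose groups did not overlap, and it was lower in KD. It had 8.90, 6.68, 7.47 and 8.45 TPM in RE, 8.24, 10.0, 8.07 and 8.09 TPM in KD, and 12.8, 12.4, 11.2 and 10.1 TPM in CON. All CON libraries were above all RE and KD libraries, with CON 4 and KD 2 close to each other. The estimate in KD against CON was -0.39 (SE 0.17; limma adjusted p = 0.167). It was -0.35 with length correction (limma adjusted p = 0.536), and -0.45 without CON 4, RE 1 and RE 3, where Acaca fell (limma adjusted p = 0.0321). With both changes together it was 0.02 (SE 0.22).

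The other 5 fatty acid enzymes overlapped between KD and CON. Acly, which makes acetyl-CoA from citrate in the cytosol for both routes, had 147, 194, 103 and 137 TPM in KD and 148, 134, 119 and 52.9 TPM in CON. Fasn, which builds palmitate, had 35.0 to 59.5 TPM in KD and 26.7 to 63.2 TPM in CON, and Elovl6, which lengthens palmitate, 15.2 to 27.0 TPM in KD and 12.7 to 38.2 TPM in CON. Scd1 had 713, 818, 395 and 597 TPM in KD and 529, 552, 504 and 207 TPM in CON, and Scd2 had 806, 1072, 751 and 783 TPM in KD and 825, 771, 692 and 388 TPM in CON. Both genes encode desaturases that put a double bond into saturated fatty acids, and in all 5 genes the lowest CON library was CON 4.

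The groups did not overlap, with KD higher, in 8 of the 30 genes (26.7%), beside 11.9% of all tested genes, and with KD lower in 1 gene (3.3%), beside 7.02% of all tested genes. The 8 were Insig1, Hmgcs1, Idi1, Msmo1, Nsdhl, Hsd17b7, Sc5d and Dhcr7, of which 7 are among the 18 mevalonate and sterol enzymes (38.9%) and 0 among the 6 fatty acid enzymes. The median estimate was 0.62 in the 18 sterol enzymes (17 above 0), 0.19 in the 6 fatty acid enzymes (3 above 0) and -0.01 in all tested genes. These medians describe the lists and were not tested.

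The count of rises depended on the long-transcript libraries. Without CON 4, RE 1 and RE 3, 14 of the 30 genes rose and 2 fell, Acaca and Srebf1, while 1683 of all tested genes rose and 2986 fell. Of the 14, 13 were mevalonate or sterol enzymes and 1 was Insig1. With length correction in all 12 libraries 11 genes rose and 0 fell, beside 1396 and 1195 of all tested genes. Those 11 were Hmgcs1, Mvd, Idi1, Lss, Tm7sf2, Msmo1, Nsdhl, Hsd17b7, Sc5d and Dhcr7 of the sterol route, and Scd1. Leaving out KD 2, KD 4 or CON 3 gave 0 rises, beside 498, 511 and 542 of all tested genes, and leaving out CON 4 gave 9, beside 1119.

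In RE against KD, 28 of the 30 genes had an estimate below 0 and none passed the test (limma, adjusted p below 0.05), beside 1.04% of all tested genes called, 0.187% higher (22) and 0.858% lower (101). At an unadjusted limma p below 0.05, 14 of the 30 genes were lower and 0 higher, beside 3298 of the 11774 tested genes in either direction. The median of the 30 was -0.57, and that of all tested genes was -0.29, so the whole table was shifted in the same direction. With median-of-ratios scaling the median of all tested genes was 0.00, that of the 30 genes was -0.24 with 23 below 0, and 32 of all tested genes rose and 46 fell. RE libraries were all below KD libraries in 6 of the 30 genes (20%), beside 10.8% of all tested genes, and above them in 0, beside 3.47%.

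The 6 genes were Srebf1, Hmgcs1, Tm7sf2, Nsdhl, Hsd17b7 and Sc5d. Hmgcs1 was lower in RE by an estimate of -0.98 (SE 0.30; limma adjusted p = 0.107), Sc5d by -0.97 (SE 0.29; 0.105) and Hsd17b7 by -1.02 (SE 0.32; 0.111). Nsdhl had 83.9, 118, 50.2 and 112 TPM in RE and 127, 185, 139 and 151 TPM in KD (estimate -0.78, SE 0.24; limma adjusted p = 0.112). In each of these 4 genes the lowest RE library was RE 3, and in Hmgcs1 and Hsd17b7 the highest was RE 4. Tm7sf2 had 22.9, 26.4, 26.5 and 20.2 TPM in RE and 28.4, 33.2, 36.5 and 30.9 TPM in KD. Srebf1 had 24.6, 27.8, 13.1 and 34.1 TPM in RE against 35.4, 35.3, 34.7 and 34.2 TPM in KD, where RE 4 and KD 4 almost met. The estimate was -0.41 for Tm7sf2 and -0.55 for Srebf1. With length correction the estimates were -0.61 for Hmgcs1, -0.41 for Sc5d, -0.48 for Hsd17b7, -0.64 for Nsdhl, -0.47 for Tm7sf2 and -0.05 for Srebf1. Without CON 4, RE 1 and RE 3 they were -0.46, -0.59, -0.60, -0.37, -0.46 and -0.18 in the same order.

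Other genes of the set with larger estimates overlapped between RE and KD. Stard4 had 4.92, 14.2, 2.41 and 10.2 TPM in RE and 27.8, 37.3, 8.29 and 18.7 TPM in KD (estimate -1.47, SE 0.65; limma adjusted p = 0.172). Scd1 had 209, 481, 199.8 and 341 TPM in RE against 713, 818, 395 and 597 TPM in KD (estimate -1.08, SE 0.37; limma adjusted p = 0.130). In both genes RE 1 and RE 3 were the low libraries. Lss, with 11.2 to 28.3 TPM in RE and 28.0 to 62.03 TPM in KD, overlapped by RE 4 and KD 3 alone (estimate -0.98, SE 0.31; limma adjusted p = 0.118). With length correction the estimates of Stard4, Scd1 and Lss were -0.87, -0.51 and -0.44. Without CON 4, RE 1 and RE 3 they were -0.70, -0.59 and -0.57. Fdps, Pmvk, Ebp and Mvk were near their KD levels, with means of 95.1, 126, 78.3 and 51.4 TPM in RE and 92.1, 127, 72.9 and 55.8 TPM in KD.

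**Figure D3:**
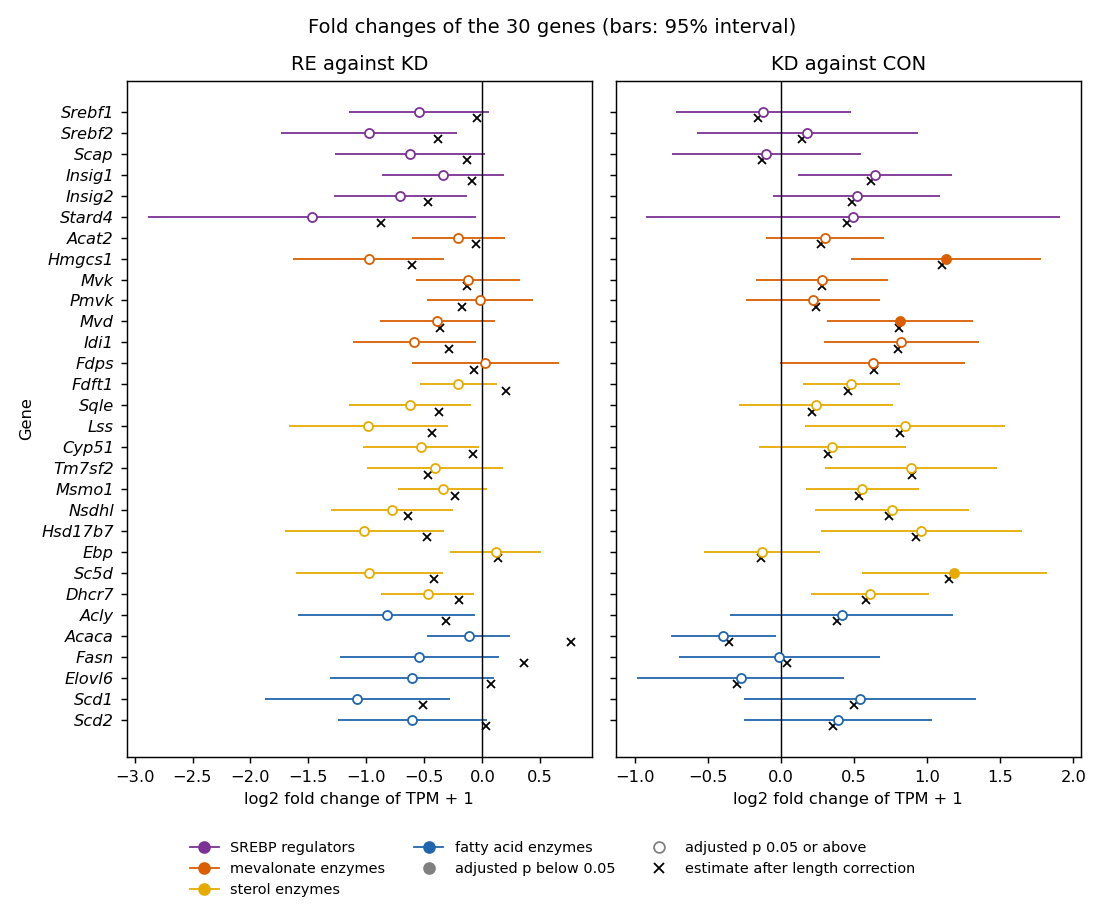
Points are log2 fold changes of TPM + 1 with 95% intervals for the 30 genes, in RE against KD on the left and KD against CON on the right, coloured by role, filled where the adjusted p was below 0.05, with a cross for the estimate after length correction. Hmgcs1, Sc5d and Mvd are filled on the right and no gene is filled on the left, where the crosses of the fatty acid enzymes lie to the right of their points.

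Without CON 4, RE 1 and RE 3 the median of the 30 genes in RE against KD was -0.28, with -0.11 in all tested genes, and 0 genes passed the test in either direction. With length correction it was -0.22, with 0.01 in all tested genes, and again 0 passed. Leaving out CON 4, which enters this comparison through the shared estimate of spread alone, gave 10 falls, beside 2347 falls in all tested genes. Those 10 were Acly, Hmgcs1, Hsd17b7, Insig2, Lss, Nsdhl, Sc5d, Scd1, Srebf2 and Stard4. The KD libraries enter both comparisons, so the opposite signs of KD against CON and RE against KD are not independent of each other.

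In RE against CON none of the 30 genes passed the test (limma, adjusted p below 0.05), beside 6.33% of all tested genes called, 2.7% higher and 3.63% lower. At an unadjusted limma p below 0.05, 1 of the 30 genes was higher, Fdps, and 5 were lower. Beside them stood 3342 of the 11774 tested genes in either direction. The median estimate was 0.15 in the 18 sterol enzymes (12 above 0), -0.52 in the 6 fatty acid enzymes (0 above 0) and -0.27 in all tested genes. With median-of-ratios scaling, which shifts all genes of a library alike, these medians were 0.45, -0.23 and 0.01. With length correction they were 0.38, 0.23 and -0.004, so the fatty acid median changed sign, and 2 genes rose, Hsd17b7 and Sc5d. With length correction and without CON 4, RE 1 and RE 3 together 10 genes rose and 0 fell, beside 1628 and 1441 of all tested genes. In the fit with median-of-ratios scaling 592 of all tested genes rose and 504 fell, against 318 and 427 as deposited. As deposited, the 6 regulators had a median of -0.69, with Insig1 alone above 0. With length correction Insig1 was at 0.52, Insig2 at 0.02, Srebf1 at -0.20, Srebf2 at -0.24, Scap at -0.27 and Stard4 at -0.42.

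Fdps had 89.3, 80.6, 132 and 78.6 TPM in RE and 46.2, 43.5, 50.01 and 117 TPM in CON (estimate 0.66, SE 0.29; limma adjusted p = 0.169), and without CON 4 the groups would not overlap. Elovl6 had 13.7, 12.6, 9.45 and 19.4 TPM in RE and 38.2, 33.0, 25.9 and 12.7 TPM in CON (estimate -0.88, SE 0.33; limma adjusted p = 0.127), with CON 4 again inside the range of RE. Acaca was the 1 gene whose groups did not overlap, with RE lower (3.3%, beside 4.76% of all tested genes, and 0 with RE higher, beside 4.46%). Its estimate was -0.51 (SE 0.17; limma adjusted p = 0.0928). With length correction it was 0.41 (SE 0.37; limma adjusted p = 0.451), of the opposite sign but close to its SE. Without CON 4, 5 genes rose in RE against CON, Fdps, Pmvk, Mvd, Fdft1 and Tm7sf2, all of the sterol route. In the same fit 9 genes fell: the regulators Scap, Srebf1, Srebf2 and Stard4, and the fatty acid enzymes Acaca, Acly, Elovl6, Fasn and Scd1. In that fit 1277 of all tested genes rose and 4935 fell. RE 1 and RE 3 stayed in it and no length trend was removed. The 5 genes that rose have transcripts of 1194 to 3698 bases, and the 9 that fell have 4227 to 10050 bases. With length correction in all 12 libraries none of these genes passed the test, beside 893 rises and 628 falls in all tested genes.

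The levels of the sterol and of the fatty acid enzymes were also summed in each library. The 18 mevalonate and sterol enzymes summed to 1478, 1584, 1166 and 1785 TPM in RE, 1700.5, 2324, 1995 and 2057 TPM in KD, and 1509, 1351, 1261 and 1491 TPM in CON. Every KD library was above every CON library, and RE 4 was above KD 1. The 6 fatty acid enzymes summed to 819.8, 1406, 611 and 1301 TPM in RE, 1744, 2181, 1307 and 1585 TPM in KD, and 1616, 1551, 1399 and 698 TPM in CON, and here KD and CON overlapped.

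The sterol sum over the fatty acid sum was 1.80, 1.13, 1.91 and 1.37 in RE, 0.9753, 1.07, 1.53 and 1.30 in KD, and 0.933, 0.871, 0.902 and 2.14 in CON. CON 1 to CON 3 had the lowest ratios of the 12 libraries and CON 4 had the highest. RE 1 and RE 3 came next after CON 4, so the 3 libraries with low long transcripts had the 3 highest ratios. The sum of the fatty acid enzymes is mostly Scd1 and Scd2. Without both, the ratio was 9.78 to 14.4 in RE, 7.56 to 12.4 in KD, and 5.75, 5.91, 6.20 and 14.6 in CON, and the same library stood apart.

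**Figure D4:**
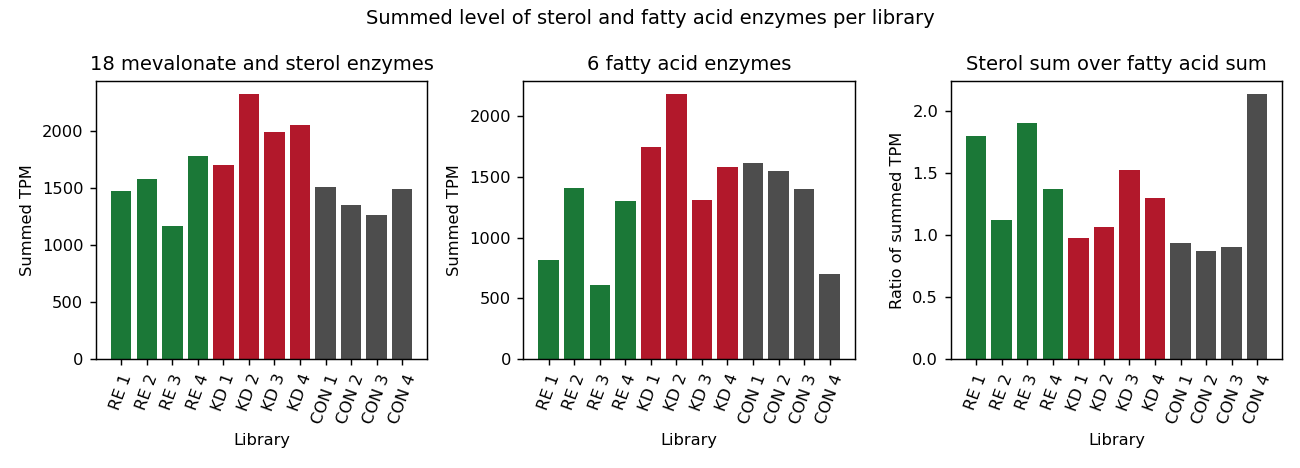
Bars give the summed TPM of the 18 mevalonate and sterol enzymes, the summed TPM of the 6 fatty acid enzymes and their ratio in each library, with RE, KD and CON from left to right. The sterol sums of KD, 1700.5 to 2324 TPM, are all above those of CON, 1261 to 1509 TPM, and the ratio is highest in CON 4 at 2.14.

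The median estimate of the sterol enzymes minus that of the fatty acid enzymes was 0.16 in RE against KD, 0.68 in RE against CON and 0.43 in KD against CON. In KD against CON it stayed between 0.29 and 0.73 on leaving out each library, and was 0.41 with length correction. In RE against KD it was 0.06 without RE 3 and 0.27 without RE 4, the lowest and highest values on leaving out each library, and -0.31 with length correction, the opposite sign, since the median of the fatty acid enzymes was then 0.05 and that of the sterol enzymes -0.26. In RE against CON it was 0.56 to 0.92 on leaving out each library and 0.15 with length correction, where the median was 0.38 in the sterol enzymes and 0.23 in the fatty acid enzymes. Whether the routes differ was not tested, as the genes were chosen with these data known.

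Over the 30 genes, the Spearman correlation of transcript length with the fold change was -0.57 in RE against KD, -0.73 in RE against CON and -0.23 in KD against CON, as a description over genes of the same libraries. After length correction these were 0.09, -0.15 and -0.26. Fasn (10050 bases) and Acaca (9513 bases) have the longest transcripts of the set and Pmvk (1194 bases) and Fdps (1382 bases) the shortest. In RE against CON the Fasn estimate was -0.55 (SE 0.32; limma adjusted p = 0.237) as deposited and 0.40 with length correction (SE 0.25; limma adjusted p = 0.297).

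**Figure D5:**
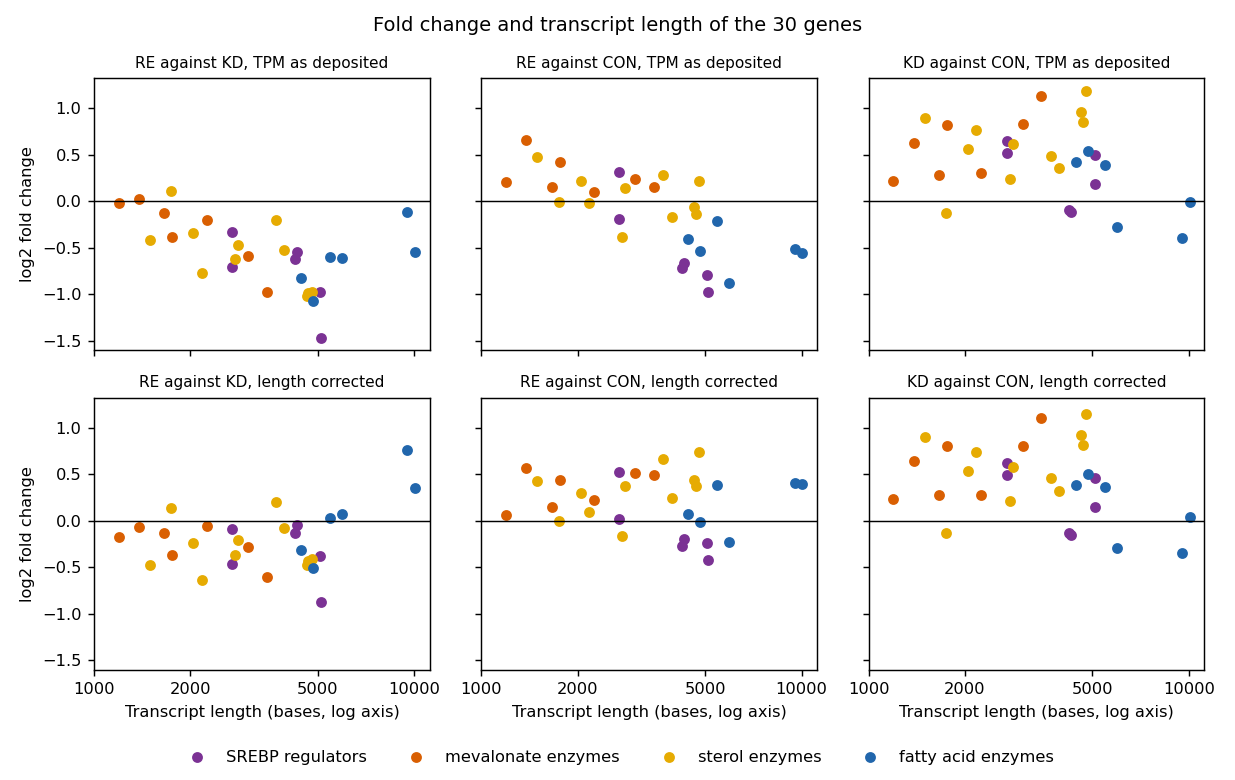
Log2 fold change against transcript length (log axis, bases) for the 30 genes, with TPM as deposited in the upper panels and after length correction in the lower panels, for RE against KD, RE against CON and KD against CON from left to right. In RE against CON the upper panel falls with length (Spearman rho -0.73) and the lower panel less so (-0.15).

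Genes next to these routes were read from a list of 61, of which 53 were tested. In KD against CON 8 rose and 1 fell (15.1% and 1.9% of those tested), beside 6.6% and 3.61% of all tested genes, against which the counts of the shorter lists are also to be read. Por, the reductase that supplies electrons to CYP51 and squalene epoxidase, rose by 0.62 (SE 0.12; limma adjusted p = 0.00626) and was the 1 rise among 14 other sterol genes. Of 15 other lipogenic genes 3 rose. Slc25a1, which carries citrate out of mitochondria, had 202, 247, 199 and 241 TPM in KD and 106, 92.6, 111 and 192 TPM in CON (0.88, SE 0.22; limma adjusted p = 0.0218). Me1, a malic enzyme that makes NADPH, rose by 0.65 (SE 0.19; limma adjusted p = 0.0431). Dgat2, which makes triglyceride, had 7.65, 11.4, 6.87 and 9.51 TPM in RE, 22.9, 20.5, 18.8 and 20.8 TPM in KD, and 5.89, 5.36, 7.86 and 7.21 TPM in CON.

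KD libraries stood apart from both other groups in Dgat2, which rose in KD against CON by 1.53 (SE 0.19; limma adjusted p = 0.000322) and fell in RE against KD by 1.16 (SE 0.19; limma adjusted p = 0.0236). It was the 1 neighbour called in RE against KD. Of 15 genes of sterol efflux, esterification and trafficking, 4 rose in KD against CON. They were Nr1h3, the oxysterol receptor LXR alpha (1.44, SE 0.25; limma adjusted p = 0.00253), Abcg1, a sterol exporter (1.25, SE 0.27; 0.00992), Lipa, the lysosomal lipase that frees cholesterol (1.17, SE 0.21; 0.00321), and Ch25h, which makes an oxysterol (1.36, SE 0.19; 0.000590). Apoe, a lipoprotein carrier of cholesterol, fell by 1.01 (SE 0.25; limma adjusted p = 0.0227). Of 9 genes of SREBP processing and degradation 0 passed the test. Some of these calls ended on leaving out any 1 of several libraries. The Me1 call ended without KD 1, KD 2, KD 4, RE 4, CON 1, CON 2 or CON 3 (limma adjusted p up to 0.145) and with a minimum mean of 5 TPM (0.0504), the Slc25a1 call without KD 2, KD 4, CON 1, CON 2 or CON 3 (up to 0.0737) and with median-of-ratios scaling (0.131), and the Apoe call without KD 1, KD 2, KD 4, CON 1 or CON 3 (up to 0.0850) and with quantile normalization (0.0733). The Dgat2 call in RE against KD ended without KD 1, KD 2, KD 4, RE 1 or RE 4 (limma adjusted p up to 0.121), with both scalings (0.0622 and 0.0960) and without CON 4, RE 1 and RE 3 together (0.0545).

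In RE against CON, Ch25h had 12.8, 13.7, 19.4 and 13.4 TPM in RE and 4.61, 6.72, 6.22 and 7.12 TPM in CON (1.14, SE 0.19; limma adjusted p = 0.00265). Nr1h3 rose by 0.95 (SE 0.25; limma adjusted p = 0.0387). These 2 of 53 were the neighbours called in RE against CON, beside 2.7% of all tested genes that rose, and in both genes the RE libraries did not overlap those of CON. The Nr1h3 call ended on leaving out any 1 library other than RE 3, KD 3 and CON 4 (limma adjusted p up to 0.0957), in a fit of RE and CON alone (0.122) and with a minimum mean of 5 TPM (0.0510).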

How the data were processed

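The authors deposited TPM values for 12 libraries in 1 table, and each column sums to 1000000, so the sequencing depth is unknown. No counting interval is given for that reason. Trim Galore 0.6.6, TopHat2 2.1.1, Cufflinks 2.2.1 and build mm10 are named, per the submitters' processing notes. How TPM were made from these, the annotation and the use of strand are not given in the sources used here. The 4 control columns are named WT and were taken as CON because the labels give CON that genotype, and a number in such a column ties it to no RE or KD library. Separate cultures are not stated for the replicates, and p-values then describe only how these libraries scatter, which may be technical.

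Tests used log2(TPM + 1), where a pseudocount of 1 understates changes of low genes. Genes averaging 1 TPM or more entered limma 3.58.1 (R 4.3.3; moderated two-sided test with a mean-variance trend), with all 12 libraries in 1 fit and a mean per group. P-values were adjusted over all tested genes with the Benjamini-Hochberg method in each comparison. All members are named, with values per library for those past the threshold, and of the pathway neighbours those past it. Other values per library were chosen after they were seen. The members and lists were chosen with earlier results of these data known. Lengths, positions and overlaps are from GENCODE M21, using each symbol's longest coding transcript (any transcript where none is coding), matched for 96.3% of tested genes. Promoters are from RefSeq GRCm38.p6. The script was tested on simulated data.

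Alternatives were quantile normalization, median-of-ratios scaling, a pseudocount of 0.1, a minimum mean of 5 TPM or none, only the 2 compared groups, a block on the replicate number, robust moderation of the variance, a required log2 fold change of 1, removal of a smooth length trend (loess, span 0.5), each library left out in turn, and CON 4, RE 1 and RE 3 left out together. The length trend together with leaving out those 3 libraries was added after seeing the data.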

Additional observations from a re-analysis of the deposited data

Results flagged for a closer look

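In 9 of 90 sets of 4 libraries, 1 library lay far from the other 3 relative to the range of the set. The cut-off is one that chance alone passes in about 1 in 20 independent sets. These 90 sets share the same 12 libraries and are not independent, so their count cannot be judged against that rate. CON 4 was the outlying library in 7 of the 9, high in 5 and low in 2. It was high for Pmvk (178 TPM, the other CON libraries 84.5 to 97.3), Mvd (46.4 TPM, others 23.9 to 26.3), Fdps (117 TPM, others 43.5 to 50.01), Tm7sf2 (33.4 TPM, others 11.6 to 14.8) and Ebp (116 TPM, others 66.8 to 71.8). It was low for Insig2 (62.3 TPM, others 107 to 111) and Scd1 (207 TPM, others 504 to 552). The 5 genes that were high in CON 4 are enzymes of the sterol route. Their transcripts are also short, from 1194 (Pmvk) to 1756 bases (Mvd), while Mvk, at 1660 bases, was not flagged. The 2 genes that were low measure 2697 (Insig2) and 4832 bases (Scd1). Over the 2271 tested genes with the shortest transcripts, log2 deviations from the gene mean had a median of 0.23 in CON 4, the highest of the 12 libraries. The part of transcript length in these values was not tested.

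KD 2 was high for Scd2 (1072 TPM, the other KD libraries 751 to 806) and for Acaca (10.0 TPM, others 8.07 to 8.24).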

How the results depend on the processing

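Counts of the 30 genes are given with the count of all tested genes called the same way, which moved with them. In KD against CON, 3 genes rose as analysed (777 of all), 6 with median-of-ratios scaling (879), 8 with quantile normalization (1067), 6 with the 2 groups alone (820), 11 with length correction (1396), 14 without CON 4, RE 1 and RE 3 (1683; 2 fell, 2986 of all), 19 with both changes (2648), and 0 (without KD 2, 498) to 9 (without CON 4, 1119) on leaving out each library. In RE against CON, 1 gene rose with quantile normalization (672 of all), 2 with length correction (893), 3 without the 3 libraries (957; 4 fell, 2867 of all), 10 with both (1628), and on leaving out each library 0 to 5 rose and 0 to 9 fell, with the highest counts without CON 4 (1277 and 4935 of all). In RE against KD, 0 to 10 fell on leaving out each library, 10 without CON 4 (2347 of all). With both changes, the 19 rises in KD against CON included the fatty acid enzymes Scd1 and Scd2 and the regulators Insig1 and Insig2. The 10 rises in RE against CON included Scd2 and Insig1. All other rises of these 2 fits were mevalonate or sterol enzymes. The sterol minus fatty acid median became -0.31 with length correction and -0.30 with both in RE against KD, and 0.15 with length correction in RE against CON.

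Single genes were followed where the estimate exceeded its SE. Of those values under the alternatives, 1326 kept direction and side of the threshold, 107 passed it, 22 no longer did and 19 changed sign. With length correction these were Fdft1 (0.20), Fasn (0.36), Elovl6 (0.0717) and Scd2 (0.029) in RE against KD, and Acly (0.0695), Acaca (0.41) and Fasn (0.40) in RE against CON. With both changes they were Acaca (0.0196) in KD against CON, Srebf1 (0.028), Acat2 (0.0118), Fasn (0.24) and Scd2 (0.16) in RE against KD, and Sqle (0.0511), Acly (0.15), Acaca (0.34), Fasn (0.48) and Scd1 (0.10) in RE against CON. With median-of-ratios scaling, Acat2 (0.12) and Fdft1 (0.12) changed sign in RE against KD. Estimates smaller than their SE are outside these counts, and some changed sign: Hsd17b7 in RE against CON (0.44, past the threshold), Scd2 in RE against CON (0.39) and Acaca in RE against KD (0.76) with length correction, and Stard4 in KD against CON (-0.12) without the 3 libraries. The causes were not tested.

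The replicate number as a block gave 10 falls of the 30 genes in RE against KD, beside 2144 falls of all tested genes. Deviations of the same-numbered RE and KD libraries correlated at -0.55, 0.65, 0.24 and -0.25, and those of libraries with different numbers at -0.69 to 0.64. Whether same-numbered cultures were paired is not stated, and these correlations cannot decide it, because library-wide trends such as that on length enter them. No paired analysis was possible for KD against CON and RE against CON because the control columns carry no number tied to the labels. With depth unknown, a difference too small to detect cannot be told from none.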
